A study of Mus musculus with 18 samples.

Results

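The Hox cluster genes were taken as every gene in the deposited count table whose symbol is Hox, a cluster letter from a to d and a number, which gave 38 of 19094 protein-coding genes. They comprised 11 Hoxa genes on chromosome 6, 10 Hoxb genes on chromosome 11, 8 Hoxc genes on chromosome 15 and 9 Hoxd genes on chromosome 2. The study asked how a mutation in Bag3, a co-chaperone of the heart's contractile apparatus, alters RNA in heart cells. Cardiomyocytes and cardiac fibroblasts were isolated from the hearts of 3 Bag3-P209L Tg+ mice and 3 Bag3-WT mice, all aged 16 months and with no drug treatment recorded in the labels. RNA sequencing gave 18 libraries, of which 12 were cardiomyocyte libraries (2 repeats per mouse, summed here) and 6 were fibroblast libraries, so that each cell type was represented by 6 mice. No source used here names the promoter that drives the transgene, the number of mouse lines or the method that purified each cell type.

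Hox genes encode homeodomain transcription factors that tell cells of the embryo where they lie along the head to tail axis. They stand in 4 clusters in which gene order follows that axis, and genes with the same number in different clusters, the paralog groups, derive from one ancestral gene. Low numbers are active from the hindbrain and pharyngeal region on, the middle numbers in the trunk, and the high numbers in the lumbar, tail and distal limb regions. Adult connective tissue cells keep much of this code, so that fibroblasts of different body sites differ in the Hox genes they express. In the early heart field, retinoic acid turns on low-numbered Hox genes such as Hoxb1 and Hoxa3.

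The 2 repeats of a mouse's cardiomyocytes together held 2261653 to 7793062 nuclear-encoded counts, against 11309883 to 15811137 in each fibroblast library, and mitochondrial genes took 51.7 to 85.5% of cardiomyocyte counts against 16.7 to 74.2% of fibroblast counts. Levels are therefore given as counts per 1000000 nuclear-encoded counts (nuclear CPM), on which scale 3 counts, the limit that a count of 0 allows, equal 0.385 to 1.33 CPM in cardiomyocytes and 0.190 to 0.265 CPM in fibroblasts. These limits cover counting error only. All 10 cardiomyocyte markers were higher in the cardiomyocyte libraries, summing to 3406 to 9039 CPM against 891 to 2400 CPM in fibroblasts. The 10 fibroblast markers summed to 9204 to 26870 CPM in the cardiomyocyte libraries, however, against 4032 to 14910 CPM in the fibroblast libraries, and both preparations held the markers of both cell types. Of these 10, 2 were called higher in cardiomyocytes (Col1a1 and Col1a2, collagen genes) and 1 lower (Tcf21, a fibroblast transcription factor), and Col1a1 alone gave 1546 to 13130 CPM in cardiomyocytes. Bag3 itself had 187 ± 27.7 CPM in Tg+ and 226 ± 142 CPM in WT cardiomyocytes, and 361 ± 124 CPM in Tg+ and 324 ± 87.4 CPM in WT fibroblasts (SD, n = 3 each), and neither difference passed the test (edgeR quasi-likelihood adjusted p = 1.00 and 0.938). Whether transcripts of the transgene are counted under Bag3 was not tested. The cardiomyocytes of Tg+ mouse 3, whose animal code has the letter F, held 61.8 Ddx3y and 171.7 Eif2s3y counts, both Y-chromosome genes, while its fibroblasts held 0 of each. The other Y-chromosome genes, Kdm5d and Uty, had 1.0 and 0.0 counts there, against 16.3 and 34.3 in cardiomyocytes of WT mouse 3, and cardiomyocytes of Tg+ mouse 1 and WT mouse 1, also coded F, held 24.0 and 18.6 Eif2s3y counts. The Y-chromosome genes of Tg+ mouse 3 thus pointed in different directions, and results that moved without this mouse are given beside their values.

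In cardiomyocytes the Hox genes summed to 120.3, 163.1 and 370.0 nuclear CPM in Tg+ mice 1, 2 and 3 and to 392.1, 72.5 and 292.2 CPM in WT mice 1, 2 and 3. In fibroblasts of the same mice they averaged 45.2 ± 4.48 CPM in Tg+ and 43.1 ± 12.4 CPM in WT (SD, n = 3 each), with a range of 31.6 to 56.3 CPM over the 6 mice. On this scale the lowest cardiomyocyte value lay above the highest fibroblast value. With TMM scaling, which the fold changes use, the ranges overlapped, since cardiomyocytes of WT mouse 2 were at 56.2 CPM and fibroblasts of WT mouse 3 at 66.6 CPM. Within a mouse, the cardiomyocyte level was 1.75 to 12.4 times the fibroblast level, with a mean log2 ratio of 2.19 ± 1.09 (SD, n = 6). When mitochondrial counts were kept in the total, the mean log2 ratio was 0.87, since those counts took a larger share of the cardiomyocyte libraries, and WT mouse 2 then had the lower value in cardiomyocytes (10.7 CPM against 31.03 CPM in its fibroblasts). In bulk samples of this kind, fewer cells of a type and less RNA per cell cannot be told apart.

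**Figure D1:**
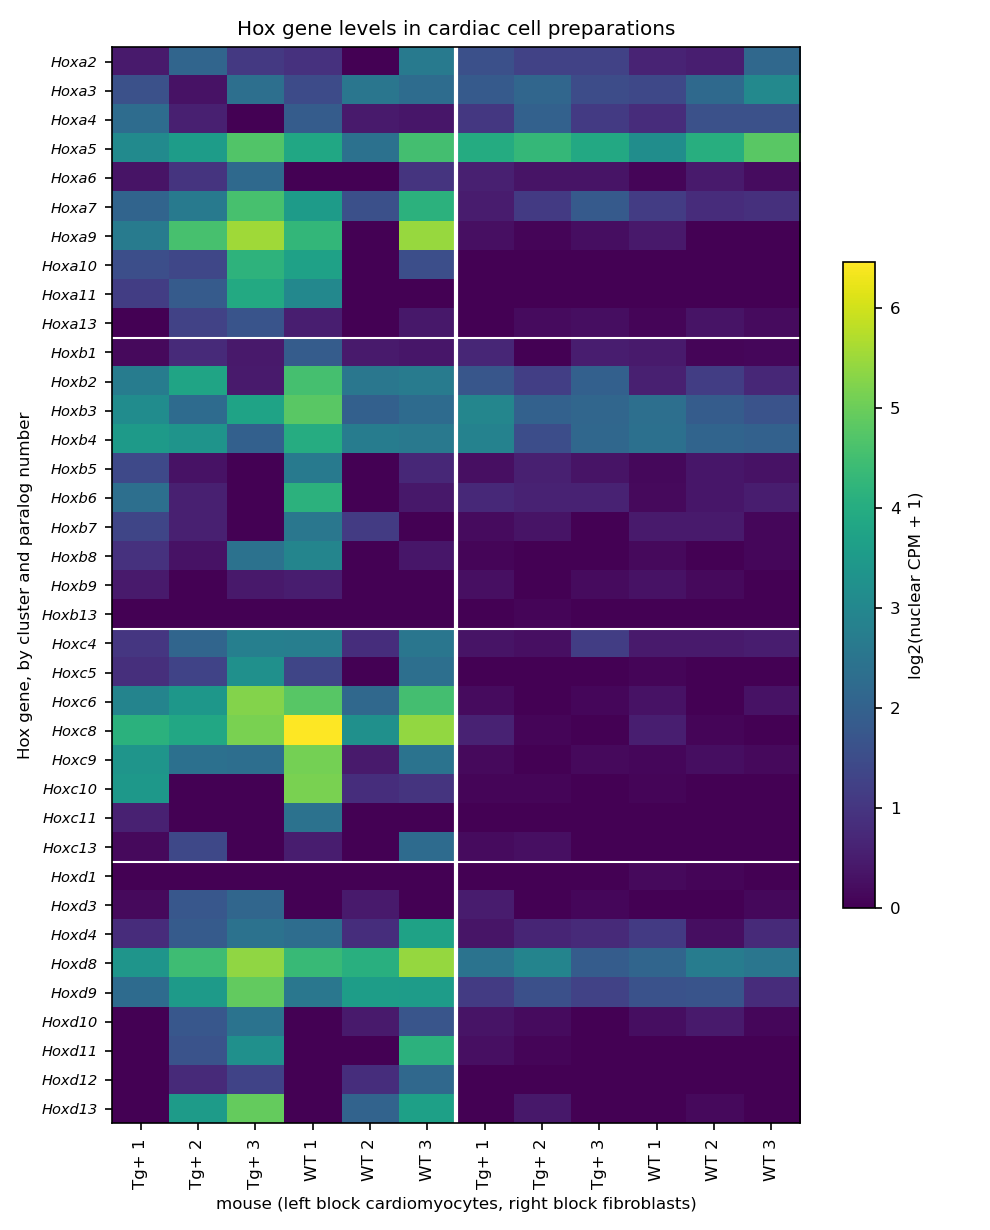
Level of 37 of the Hox genes (rows, by cluster and paralog number) in the 6 cardiomyocyte preparations (left block) and 6 fibroblast preparations (right block), as log2(nuclear CPM + 1). Hoxa5 is bright in both blocks, while Hoxc6, Hoxc8 and Hoxd8 are bright in the left block, and the low-level rows of the Hoxb, Hoxc and Hoxd clusters differ from mouse to mouse in cardiomyocytes.

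Hoxc8, Hoxc6 and Hoxd8 led in cardiomyocytes, and Hoxa5 led in fibroblasts. In cardiomyocytes the order of mean levels per kilobase of transcript, in nuclear CPM per kb, was Hoxc8 (18.0), Hoxc6 (11.1), Hoxd8 (9.37), Hoxa5 (7.35), Hoxa9 (6.98), Hoxd9 (5.47), Hoxb2 (5.24) and Hoxa7 (5.05). In fibroblasts Hoxa5 averaged 8.67 CPM per kb, followed by Hoxd8 with 1.73, Hoxb4 with 1.43, Hoxa3 with 1.31, Hoxb3 with 1.16 and Hoxa4 with 1.05 CPM per kb. In fibroblasts the range of Hoxa5 over mice lay above that of the next gene, and all other neighbours named in both orders had overlapping ranges. Hoxa5, which patterns the lung, the gut and the neck to chest vertebrae, was thus the fourth gene by length-scaled level in cardiomyocytes and the highest in fibroblasts. Of the 38 members, 33 reached 10 counts in the cardiomyocytes of at least one mouse, and 14 did so in at least one fibroblast library. Hoxb13 and Hoxd1, at opposite ends of the paralog series, had 0 counts in all cardiomyocyte libraries and at most 2 counts in any fibroblast library.

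The paralog groups were distributed differently in the preparations. Genes of groups 9 to 13, the posterior members that mark the lower trunk, tail and distal limbs, made up 27.1, 37.1 and 42.4% of Hox counts in cardiomyocytes of Tg+ mice 1, 2 and 3 and 29.6, 22.8 and 34.1% in those of WT mice 1, 2 and 3. In fibroblasts their share was 4.93, 6.43 and 5.06% in Tg+ mice and 9.80, 7.83 and 1.96% in WT mice. The ranges did not overlap, and the lowest cardiomyocyte share (95% Wilson interval 17.4 to 29.4%) lay above the highest fibroblast share (7.49 to 12.7%), where the intervals cover counting error only. Genes of groups 1 to 4, active from the hindbrain on, made up 9.87 to 29.5% of Hox counts in cardiomyocytes against 35.1 to 49.5% in fibroblasts. The share of groups 5 to 8, which include Hoxa5, was 39.1 to 51.8% in cardiomyocytes and 44.3 to 60.0% in fibroblasts, with overlapping ranges. In nuclear CPM the posterior members summed to 16.5 to 156.8 in cardiomyocytes against 1.10 to 3.24 in fibroblasts. The same measure for groups 1 to 4 was 20.9 to 84.4 CPM in cardiomyocytes against 14.5 to 23.7 CPM in fibroblasts, and these ranges overlapped. Between the repeats of a cardiomyocyte preparation, WT mouse 2 differed most as a ratio, with 59.8 and 78.8 summed Hox CPM, and in posterior share, with 15.8 and 25.4%. Tg+ mouse 3 had the largest gap in CPM, with 430 and 360 CPM, and Tg+ mouse 1 had 128 and 119 CPM.

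**Figure D2:**
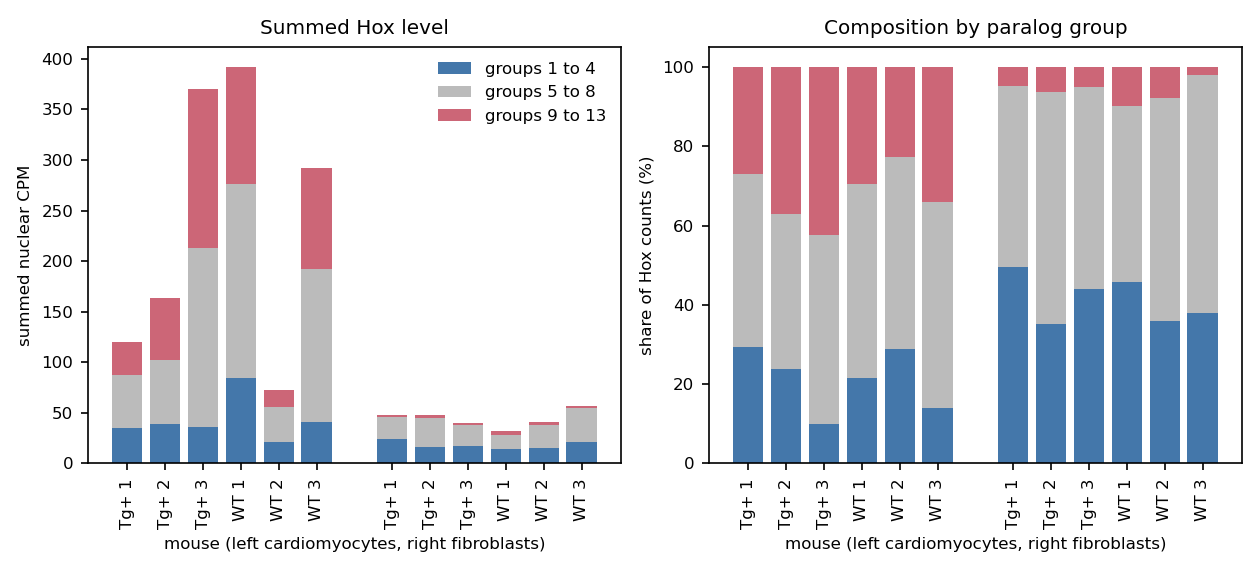
Summed nuclear CPM (left) and share of Hox counts (right, %) of paralog groups 1 to 4, 5 to 8 and 9 to 13 in each mouse's cardiomyocytes and fibroblasts. Groups 9 to 13 hold 22.8 to 42.4% of Hox counts in cardiomyocytes and 1.96 to 9.80% in fibroblasts.

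The clusters also differed. The Hoxc cluster, at chr15:102921103-103036852 (GRCm38), summed to 13.9 to 193.4 nuclear CPM in cardiomyocytes against 0.537 to 1.45 CPM in fibroblasts, where it made up 1.13 to 4.08% of Hox counts. The Hoxa cluster, at chr6:52155590-52260880, summed to 11.5 to 137.5 CPM in cardiomyocytes against 13.4 to 42.3 CPM in fibroblasts. Its share of Hox counts was 15.9 to 37.2% in cardiomyocytes and 42.3 to 75.1% in fibroblasts. The Hoxb cluster (chr11:96194316-96368256) reached 14.9 to 101.3 CPM in cardiomyocytes against 6.76 to 17.3 CPM in fibroblasts, and the Hoxd cluster (chr2:74668310-74765142) 13.9 to 121.5 CPM against 4.84 to 9.69 CPM. Of the 4 clusters, Hoxc was nearest to absent in fibroblasts, and Hoxc with Hoxd had ranges of unscaled CPM that did not overlap between the preparations. With TMM scaling the Hoxd ranges overlapped, through cardiomyocytes of Tg+ mouse 1 and fibroblasts of Tg+ mouse 2.

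The region upstream of 4 members is shown because their levels stand for 4 patterns: Hoxa5 led in fibroblasts, Hoxa10 had 0 counts there, Hoxd8 was present in both preparations of every mouse, and Hoxd13 was seen in cardiomyocytes of 4 of 6 mice. Each sequence is the 250 bases before the annotated start, from RefSeq (GRCm38.p6), on the strand of the gene, with CG dinucleotides in capitals.
Hoxa5, chr6:52204588-52204837, minus strand: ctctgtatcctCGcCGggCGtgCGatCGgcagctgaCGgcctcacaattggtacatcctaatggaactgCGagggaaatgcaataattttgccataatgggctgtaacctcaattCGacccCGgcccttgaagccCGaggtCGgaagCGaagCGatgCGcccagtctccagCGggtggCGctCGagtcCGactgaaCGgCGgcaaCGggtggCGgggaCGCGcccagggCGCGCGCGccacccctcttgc
Hoxa10, chr6:52240855-52241104, minus strand: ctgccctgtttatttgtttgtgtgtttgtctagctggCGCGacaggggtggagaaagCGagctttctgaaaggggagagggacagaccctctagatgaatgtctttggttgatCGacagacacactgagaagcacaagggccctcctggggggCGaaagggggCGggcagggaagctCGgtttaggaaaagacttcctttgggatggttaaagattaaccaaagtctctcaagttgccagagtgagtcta
Hoxd8, chr2:74704365-74704614, plus strand: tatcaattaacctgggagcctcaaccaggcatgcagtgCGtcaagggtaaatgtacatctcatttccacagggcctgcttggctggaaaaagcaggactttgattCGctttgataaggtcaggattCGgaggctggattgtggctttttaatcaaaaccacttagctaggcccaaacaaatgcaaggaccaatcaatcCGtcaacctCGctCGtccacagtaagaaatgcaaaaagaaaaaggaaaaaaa
Hoxd13, chr2:74667975-74668224, plus strand: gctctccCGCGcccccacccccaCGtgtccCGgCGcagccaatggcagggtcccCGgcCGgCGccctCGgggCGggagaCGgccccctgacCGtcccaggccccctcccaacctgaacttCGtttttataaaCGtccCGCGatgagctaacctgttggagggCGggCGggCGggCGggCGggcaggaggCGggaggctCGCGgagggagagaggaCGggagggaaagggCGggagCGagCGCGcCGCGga
The Hoxa5 window held 28 CG dinucleotides, the Hoxd13 window 31, the Hoxa10 window 7 and the Hoxd8 window 6. A relation of CG count to level was not tested. Upstream windows were at hand for 22 of the 38 members, with a median of 12 CG dinucleotides (range 2 to 35) against a median of 6 over 27025 promoters. The letters TGATNNAT, bound in vitro by HOX with PBX partners, were searched on both strands and found in 3 of 22 members (Hoxa2, Hoxb1 and Hoxb8), against 7.91% of all promoters. AGGTCA, the half-site of retinoic acid receptors, was found on either strand in 6 of 22 (Hoxb4, Hoxc4, Hoxd3, Hoxd4, Hoxd8 and Hoxd10), against 13.8% of all promoters. A match of letters describes the window and does not show binding.

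Cardiomyocytes were compared with fibroblasts of the same mice to find which Hox genes differed between the preparations. With edgeR's quasi-likelihood test and the mouse as a block, 5 members were higher in cardiomyocytes and 0 lower, of 13 that passed the filter on low counts, where 20.4% of all genes tested were called higher and 24.7% lower (45.1% in either direction). The 5 were Hoxa7, Hoxc6, Hoxc8, Hoxd8 and Hoxd9, all of groups 6 to 9. Of the 15 posterior members, 1 (Hoxd9) passed this filter. Hoxc6 and Hoxc8 had under 10 counts in every fibroblast library, passed the filter through cardiomyocytes and could hardly be called lower. Scaled by library size alone, 6 members were higher and 0 lower, and over all genes 4586 were higher and 2153 lower, against 2705 higher and 3285 lower with TMM scaling. The filter left out members near 0 in fibroblasts and low in some cardiomyocytes. When all 38 were tested, 16 were higher and 0 lower, where 12.9% of all genes were called higher and 19.0% lower. With a filter applied to the 4 groups, 24 members were tested and 13 were higher and 0 lower, where 19.3% of all genes were called higher and 24.4% lower. Of the 13, 8 had under 10 counts in every fibroblast library, and of the 16 above, 11 did; such members passed the 4-group filter through cardiomyocytes and could hardly be called lower, so that these counts are a description and no support for a direction. The 16 were 8 of 15 posterior members, 6 of 11 members of groups 5 to 8 and 2 of 12 members of groups 1 to 4, or, by cluster, 6 of 8 Hoxc, 5 of 9 Hoxd, 4 of 11 Hoxa and 1 of 10 Hoxb genes.

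Hoxc8 and Hoxc6, which help set the identity of thoracic vertebrae and of the forelimb level of the trunk, had the largest fold changes among the called members. Hoxc8 had 16.5, 13.5 and 34.5 nuclear CPM in cardiomyocytes of Tg+ mice 1, 2 and 3 and 86.8, 8.41 and 41.9 CPM in those of WT mice 1, 2 and 3, while its fibroblast counts were 8.1, 1.0 and 0.0 in Tg+ and 7.3, 1.0 and 0.0 in WT. Hoxc6 had 6.50, 9.68 and 37.3 CPM in Tg+ and 26.4, 3.54 and 21.9 CPM in WT cardiomyocytes, against 0 to 4.0 counts in any fibroblast library. Every cardiomyocyte value of both genes lay above every fibroblast value. The log2 fold change (cardiomyocyte over fibroblast) was 6.90 (SE 0.65, adjusted p = 1.59e-05, edgeR) for Hoxc8 and 6.63 (SE 0.55, adjusted p = 7.19e-06, edgeR) for Hoxc6, higher in 6 of 6 mice each. Both genes had under 10 counts in every fibroblast library and passed the filter through cardiomyocytes. They could hardly be called lower, and Hoxc6 did not pass the filter when mitochondrial genes were kept.

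Hoxd8 and Hoxd9, neighbours in the middle of the Hoxd cluster, and Hoxa7, a trunk gene of the Hoxa cluster, were found in both preparations at unequal levels. Hoxd8 had 9.24, 20.8 and 40.6 CPM in cardiomyocytes of Tg+ mice 1, 2 and 3 and 19.5, 15.7 and 42.3 CPM in those of WT mice 1, 2 and 3, while fibroblasts had 4.53, 6.58 and 2.65 CPM in Tg+ and 3.29, 5.50 and 4.82 CPM in WT. The ranges of Hoxd8 did not overlap on this unscaled measure. They overlapped with TMM scaling, whose factors were 1.23 for cardiomyocytes of Tg+ mouse 1 and 0.794 for fibroblasts of Tg+ mouse 2. The log2 fold change of Hoxd8 was 1.88 (SE 0.44, adjusted p = 0.00538, edgeR). Hoxd9 had 3.78 to 29.2 CPM with a mean of 11.7 ± 9.16 CPM in cardiomyocytes against 0.766 to 2.18 CPM with a mean of 1.60 ± 0.576 CPM in fibroblasts (SD, n = 6 each), and a log2 fold change of 2.20 (SE 0.51, adjusted p = 0.00548, edgeR). Hoxa7 averaged 10.1 ± 8.37 CPM in cardiomyocytes and 1.15 ± 0.746 CPM in fibroblasts (SD, n = 6 each), with ranges that overlapped through WT mouse 2, and a log2 fold change of 2.52 (SE 0.48, adjusted p = 0.00166, edgeR). All 3 genes were higher in cardiomyocytes of 6 of 6 mice.

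**Figure D3:**
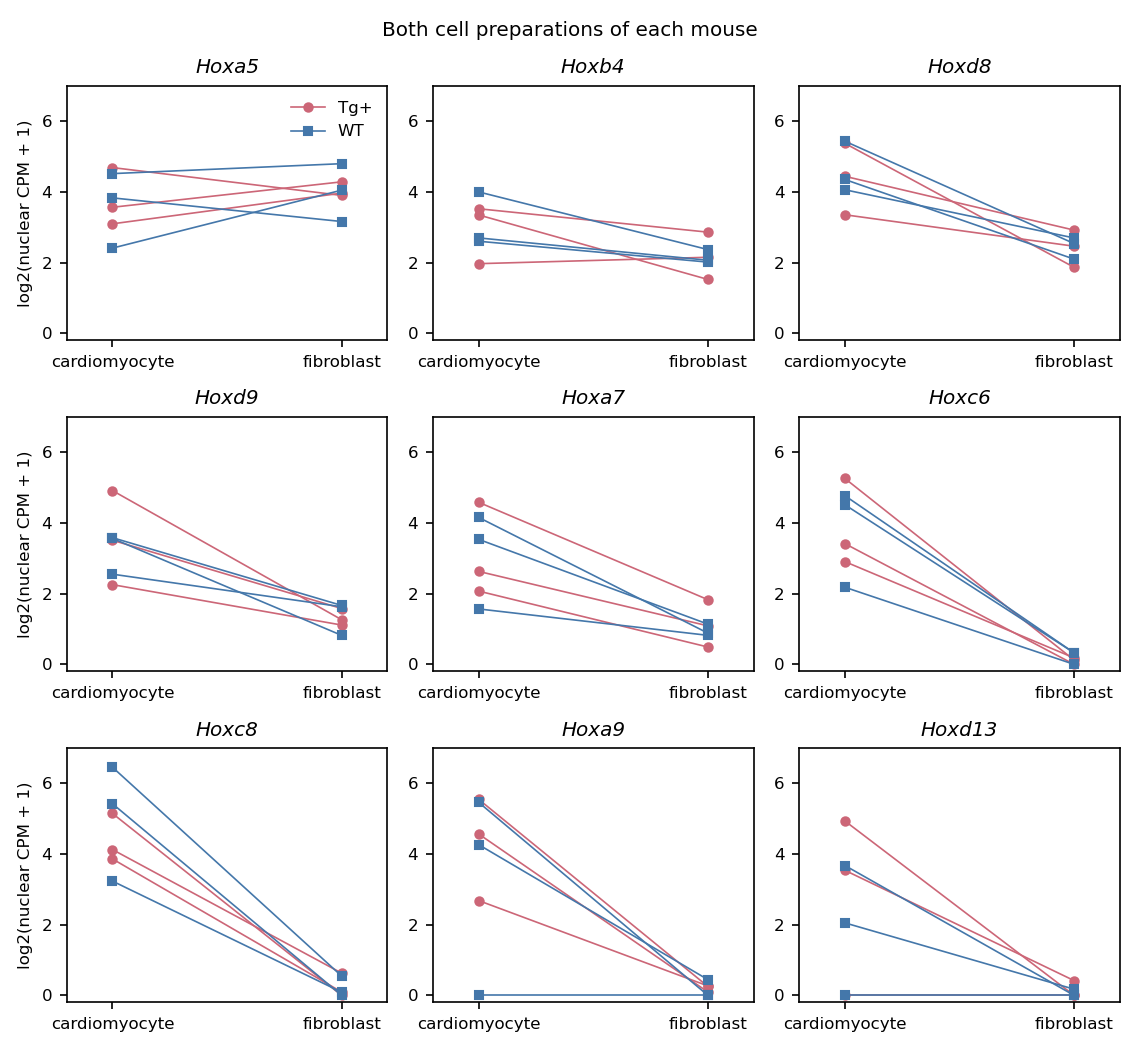
log2(nuclear CPM + 1) of 9 Hox genes in cardiomyocytes (left) and fibroblasts (right) of each mouse, with a line joining both preparations of a mouse (circles Tg+, squares WT). Hoxa5 lines cross and Hoxb4 falls to the right in 5 of 6 mice, whereas Hoxd8, Hoxd9, Hoxa7, Hoxc6 and Hoxc8 do so in 6 of 6, and Hoxa9 and Hoxd13 are at 0 in some cardiomyocytes.

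The posterior Hoxa genes had counts in most cardiomyocyte preparations and almost none in fibroblasts. Hoxa9, active in trunk, hindlimb and blood progenitors, had 5.42, 22.7 and 45.8 CPM in cardiomyocytes of Tg+ mice 1, 2 and 3 and 18.2, 0.0 and 43.1 CPM in those of WT mice 1, 2 and 3, against 0.0 to 5.7 counts in each fibroblast library. Hoxa10 and Hoxa11, which pattern limbs and the reproductive tract, had 0 counts in all 6 fibroblast libraries. Hoxa10 averaged 5.74 ± 7.01 CPM (SD, n = 6) in cardiomyocytes, at least 26.4-fold higher than the limit set by 3 counts per fibroblast library, and Hoxa11 averaged 4.20 ± 5.58 CPM (SD, n = 6), at least 19.3-fold higher. Without Tg+ mouse 3 these means were 3.48 and 2.19 CPM and the bounds 16.7-fold and 10.5-fold. WT mouse 2 had 0 counts of all 3 genes in cardiomyocytes, and WT mouse 3 had 0 counts of Hoxa11. In the test of all 38 members each of the 3 was called higher, Hoxa9 with a log2 fold change of 6.52 (SE 0.71, edgeR). Hoxa13, the last gene of the cluster, stayed at or below 6.0 counts in every preparation.

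Of the remaining Hoxc and Hoxd genes, Hoxc4, Hoxc5, Hoxc9, Hoxc10, Hoxd4, Hoxd12 and Hoxd13 were called higher when all members were tested, together with Hoxb8. Hoxc9, a thoracic gene that represses forelimb motor neuron fates, was above its fibroblast range in all 6 cardiomyocyte preparations, at 9.34 ± 12.2 CPM against 0.0989 ± 0.0576 CPM (SD, n = 6 each), although the lowest, WT mouse 2, held 1.0 count. Members whose ranges did not overlap in this way, in unscaled CPM, were Hoxc6, Hoxc8, Hoxc9, Hoxd8 and Hoxd9, 5 of 38. On the same scale 13.6% of all genes had every cardiomyocyte value above every fibroblast value. With TMM scaling the ranges of Hoxd8 overlapped. In the opposite direction there were 0 members, against 8.79% of all genes. Of the 38 members, 24 had under 10 counts in every fibroblast library and could hardly lie lower in cardiomyocytes. That 0 is therefore a description and no support for a direction. Hoxd12 averaged 1.08 CPM in cardiomyocytes with 0 counts in fibroblasts, at least 4.95-fold higher, and 0.591 CPM, at least 2.81-fold higher, without WT mouse 3. Hoxc5 had 0.0 to 23.0 counts in cardiomyocytes, against 1.0 count in 1 fibroblast library and 0.0 in the other 5.

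The low-numbered genes of the Hoxa cluster were not called in either direction. Hoxa5 had 7.57, 10.9 and 24.8 CPM in cardiomyocytes of Tg+ mice 1, 2 and 3 and 13.3, 4.32 and 22.0 CPM in those of WT mice 1, 2 and 3, against 14.7, 18.5 and 14.0 CPM in Tg+ and 7.97, 15.6 and 26.9 CPM in WT fibroblasts. The ranges overlapped, and the log2 fold change was -0.74 (SE 0.40, adjusted p = 0.149, edgeR). Without Tg+ mouse 3, Hoxa5 was called lower in cardiomyocytes, at -1.01 (adjusted p = 0.0349, edgeR), and the count of calls became 6 higher and 1 lower. Hoxa2, Hoxa3 and Hoxa4, genes of the hindbrain and pharyngeal region, had log2 fold changes of -0.52 (SE 0.65), -0.75 (SE 0.60) and -1.17 (SE 0.90), with overlapping ranges.

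The low-numbered Hoxb genes, which are also hindbrain genes, had positive fold changes that did not pass the test. Hoxb2 had 0.386 to 22.3 CPM with a mean of 8.52 ± 7.82 CPM in cardiomyocytes and 0.475 to 2.97 CPM with a mean of 1.49 ± 0.968 CPM in fibroblasts (SD, n = 6 each), and a log2 fold change of 1.84 (SE 0.80, adjusted p = 0.0822, edgeR). DESeq2 called Hoxb2 at an adjusted p of 0.0167, and so did edgeR without Tg+ mouse 3 (adjusted p = 0.0074). Hoxb3 and Hoxb4 had log2 fold changes of 0.64 (SE 0.47) and 0.66 (SE 0.38). Hoxb4 averaged 8.05 ± 4.42 CPM in cardiomyocytes and 3.67 ± 1.48 CPM in fibroblasts (SD, n = 6 each), with overlapping ranges.

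The same contrast was fitted within each genotype for 24 members. Within Tg+ mice 9 were higher in cardiomyocytes and 0 lower, where 6.71% of all genes were called higher and 12.9% lower. Within WT mice 7 were higher and 0 lower, where 7.66% of all genes were called higher and 15.0% lower. Hoxa7, Hoxa9, Hoxa10, Hoxc6, Hoxc8, Hoxc9 and Hoxd13 were called in both, and Hoxa11 and Hoxc5 in Tg+ mice. Of these 9, all except Hoxa7 had under 10 counts in every fibroblast library and entered through cardiomyocytes. The difference between the genotypes in this contrast was itself tested, and 0 of 24 members were called by edgeR, 0 of them at an unadjusted p under 0.05, where 0.0% of all genes were called. Hoxa10 and Hoxa11, at 0 in all fibroblasts, are among the 24 but could not be called. Without Tg+ mouse 3, 0 of 28 were called, with 5 positive and 23 negative values and a median of -0.76 against -0.03 over all genes. With all mice 11 were positive and 13 negative, with a median of -0.06 against 0.05. The sign of the median followed the mouse left out. Without WT mouse 2, 9 were positive and 23 negative (median -0.75), and without Tg+ mouse 1, 21 were positive and 7 negative (median 0.58). Medians without Tg+ mouse 2, WT mouse 1 and WT mouse 3 were 0.32, 0.39 and 0.26. For Hoxb2 that difference was -2.24 (SE 1.497) on the log2 scale and for Hoxc8 -1.27 (SE 1.39).

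Other cell markers moved with the cell type too. The 8 smooth muscle and pericyte markers were all higher in cardiomyocyte libraries, summing to 985 to 4724 CPM against 275 to 1863 CPM in fibroblasts, and 5 of 6 mesothelial markers were higher and 1 lower, summing to 34.6 to 1210 CPM against 93.8 to 226.4 CPM. All 10 macrophage markers were lower in cardiomyocyte libraries (1007 to 4474 CPM against 4857 to 13510 CPM). The list of 8 skin, skeletal muscle and cartilage markers summed to 52.2 to 3250 CPM in cardiomyocytes against 10.9 to 20.5 CPM in fibroblasts, with 32.6 to 3242 CPM in cardiomyocytes from Acta1, the skeletal muscle actin that the heart also makes. Of the other markers in that list, Myh4 and Myh1, myosins of fast skeletal muscle, were at 0 in 4 of 6 cardiomyocyte preparations and reached at most 6.47 and 7.74 CPM, Krt5 was at 0 in 2 and Krt14 in 2. The 6 Schwann cell and neuron markers summed to 54.7 to 1544 CPM against 8.82 to 16.2 CPM, of which Tubb3, a neuronal tubulin, gave 48.3 to 1541 CPM in cardiomyocytes. The airway, lung and thyroid markers summed to 9.73 to 582 CPM against 6.07 to 13.5 CPM, the highest through Scgb1a1 in Tg+ mouse 1. The part of these cells in the Hox levels was not tested.

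Within cardiomyocytes, single mice carried different posterior genes. Hoxc10, a gene of the lumbar region and hindlimb, had 76.5, 0.0 and 0.0 counts in Tg+ mice 1, 2 and 3 and 77.9, 2.0 and 3.0 counts in WT mice 1, 2 and 3, and at most 1.0 count in any fibroblast library. Hoxc9 had 73.0, 17.8 and 11.0 counts in Tg+ and 76.0, 1.0 and 14.0 counts in WT cardiomyocytes, and Hoxb6, another trunk gene, had 32.0, 2.0 and 0.0 counts in Tg+ and 38.0, 0.0 and 1.0 counts in WT. Depth differed between these mice, and in nuclear CPM Hoxc9 was 9.36 in Tg+ mouse 1 and 33.6 in WT mouse 1, against 4.20 and 4.02 in Tg+ mice 2 and 3 and 0.393 and 4.45 in WT mice 2 and 3. Tg+ mouse 1 and WT mouse 1 were thus the highest for all 3 genes on both scales, with Hoxc10 at 9.82 and 34.4 CPM. The end of the Hoxd cluster showed the reverse. Hoxd13, the gene of digits and external genitalia, had 0, 45 and 81 counts in Tg+ mice 1, 2 and 3 and 0, 8 and 37 counts in WT mice 1, 2 and 3, and Hoxd11 had 0.0, 9.2 and 23.0 counts in Tg+ and 0.0, 0.0 and 53.0 counts in WT. Hoxd10 and Hoxd12 were also at 0 in cardiomyocytes of Tg+ mouse 1 and WT mouse 1.

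**Figure D4:**
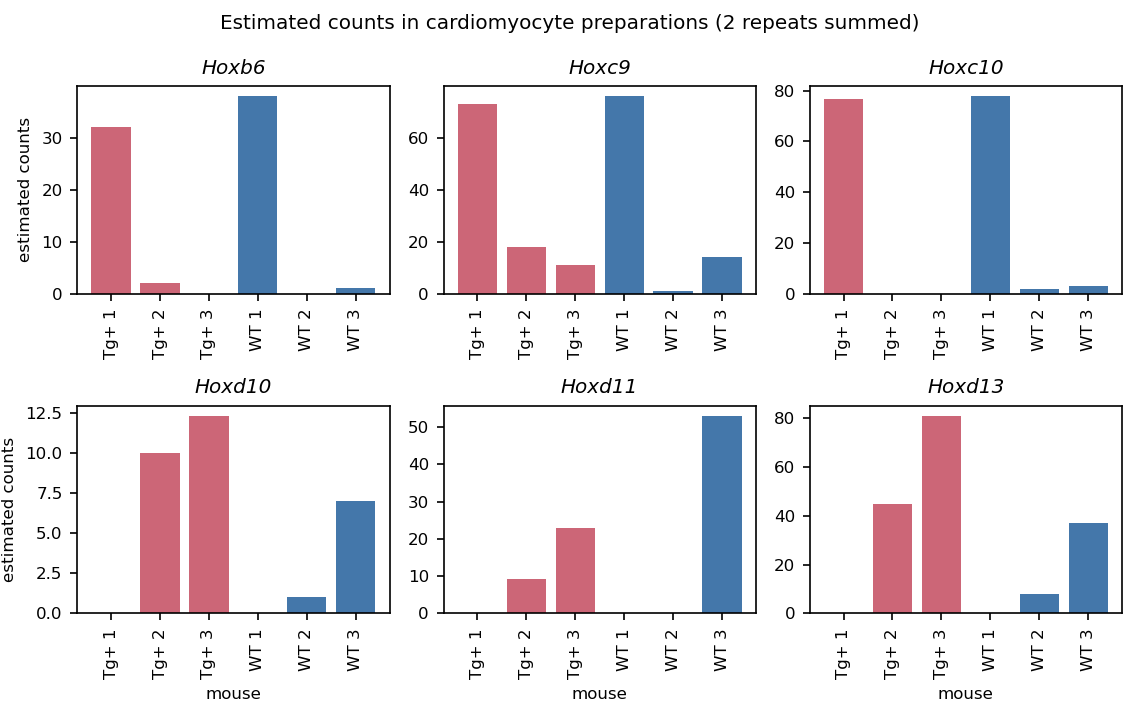
Estimated counts of 6 Hox genes in the cardiomyocytes of each mouse, both repeats summed, with a separate count axis for each gene. Hoxb6, Hoxc9 and Hoxc10 are highest in Tg+ 1 and WT 1, and Hoxd10, Hoxd11 and Hoxd13 are at 0 in the same mice.

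Those mice shared the first part of their animal code, C36, whose meaning the labels do not state, and no other pair of mice did. They were also the lowest of the 6 for Acta1 in cardiomyocytes, with 32.6 CPM in Tg+ mouse 1 and 117 CPM in WT mouse 1, against 1313 and 3242 CPM in Tg+ mice 2 and 3 and 672 and 2815 CPM in WT mice 2 and 3. In fibroblasts Hoxd13 had 0.0, 5.0 and 0.0 counts in Tg+ mice and 0.0, 2.0 and 0.0 in WT mice, too few to compare. Fibroblasts of Tg+ mouse 1 and WT mouse 1 had the highest counts of Hoxc8 (8.1 and 7.3, with at most 1.0 in the other 4 mice) and of Hoxb4 (93 and 66, with 28 to 50 in the others). The pattern was noticed in the values and is a description of these preparations, with no test. Without Tg+ mouse 3, Hoxd13 was still seen in cardiomyocytes of 3 mice.

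Tg+ and WT mice were compared within each cell type, the comparison for which the study was designed. In cardiomyocytes 15 members passed the filter and 0 were called by edgeR, 0 of them at an unadjusted p under 0.05, where 0.0% of all genes were called and 87 had an unadjusted p under 0.05. DESeq2 also called 0 members, and 0.0248% of all genes. Summed Hox levels averaged 217.8 ± 133.5 CPM in Tg+ cardiomyocytes (SD, n = 3), and the 3 WT values of 72.5, 292.2 and 392.1 CPM enclosed all 3 of them. The members with the lowest p were Hoxc8 with a log2 fold change (Tg+ over WT) of -1.07 (SE 0.80), Hoxd4 with -1.16 (SE 1.11) and Hoxc9 with -1.15 (SE 1.17), each with an adjusted p of 1.00 (edgeR). As each mouse was left out in turn, 13 of the 15 members changed sign at least once, Hoxd4 without WT mouse 3 and Hoxc9 without WT mouse 1 among them. Without Tg+ mouse 3, 0 of 18 members were called, with 1 positive and 17 negative values and a median of -0.98 against -0.04 over all genes. With all mice 6 were positive and 9 negative, with a median of -0.15 against 0.01. Without WT mouse 2, 5 were positive and 18 negative (median -0.49), and without Tg+ mouse 1, 12 were positive and 8 negative (median 0.33). Medians without Tg+ mouse 2, WT mouse 1 and WT mouse 3 were 0.02, 0.23 and 0.12. The other 12 tested members, Hoxa3, Hoxa5, Hoxa7, Hoxa9, Hoxb2, Hoxb3, Hoxb4, Hoxc4, Hoxc6, Hoxd8, Hoxd9 and Hoxd13, had log2 fold changes of -0.89 to 1.48 with standard errors of 0.67 to 1.66. An SE of that size leaves room for changes of more than 2-fold in either direction.

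In fibroblasts 12 members passed the filter and 0 were called by edgeR, where 0.0% of all genes were called and 699 had an unadjusted p under 0.05. DESeq2 called 0 members too, and 0.0433% of all genes. Hoxb2, a hindbrain and arch gene, was the 1 member at an unadjusted p under 0.05. It had 2.29, 1.30 and 2.97 CPM in Tg+ mice 1, 2 and 3 against 0.475, 1.26 and 0.640 CPM in WT mice 1, 2 and 3, so that the lowest Tg+ value was just above the highest WT value. Its log2 fold change was 1.33 (SE 0.51, adjusted p = 0.782, edgeR). Hoxb6 was the only other member with every Tg+ fibroblast value above every WT value, at 0.531 to 0.677 CPM against 0.127 to 0.423 CPM, and 4.75% of all genes did the same. Hoxa3 had a log2 fold change of -0.67 (SE 0.57, adjusted p = 0.814, edgeR) and Hoxb3 of 0.52 (SE 0.41, adjusted p = 0.806, edgeR). Hoxa5, the highest Hox gene there, averaged 15.7 ± 2.46 CPM in Tg+ and 16.8 ± 9.52 CPM in WT fibroblasts (SD, n = 3 each), and its log2 fold change was -0.12 (SE 0.42). Hoxa2, Hoxa4, Hoxa7, Hoxb4, Hoxd4, Hoxd8 and Hoxd9 had log2 fold changes of -0.38 to 0.47.

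Genes that work with, or upstream of, Hox proteins were followed as lists. Of 8 cofactor genes tested, 5 were higher and 2 lower in cardiomyocytes, where 20.4% of all genes were called higher and 24.7% lower, with a median log2 fold change of 1.11 against -0.01 over all genes. Meis1 and Meis2, homeodomain partners that Hox proteins bind on DNA, had 20.6 ± 4.71 and 60.0 ± 20.3 CPM in cardiomyocytes against 6.11 ± 1.47 and 13.9 ± 7.07 CPM in fibroblasts (SD, n = 6 each), log2 fold changes of 1.35 (SE 0.25) and 1.77 (SE 0.35). Pbx2 rose by 1.32 (SE 0.28) and Pknox1 fell by 1.24 (SE 0.20) on the log2 scale, all 4 with adjusted p of 0.00339 or less (edgeR). Of 22 regulators of Hox chromatin, 3 were higher and 5 lower, where 20.4% of all genes were called higher and 24.7% lower. Kdm6b, a demethylase of the Polycomb mark that is also made by activated myeloid cells, had 97.6 ± 32.1 CPM in cardiomyocytes against 1778 ± 271 CPM in fibroblasts (SD, n = 6 each; log2 fold change -4.63, SE 0.24, adjusted p = 5.03e-07, edgeR). Jarid2, a Polycomb cofactor, fell by 2.29 (SE 0.21), while Cbx2 of the Polycomb complex and Men1 of the opposing Trithorax complex rose by 1.68 (SE 0.31) and 0.97 (SE 0.18).

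Of 15 retinoic acid genes tested, 7 were higher and 2 lower in cardiomyocytes, against 20.4% and 24.7% of all genes. Crabp2, which carries retinoic acid inside cells, rose by 3.18 (SE 0.73) on the log2 scale, as did Cyp26b1, which degrades retinoic acid, by 0.87 (SE 0.21), while the receptor gene Rara fell by 1.01 (SE 0.20). Of 3 regulators of Hox onset tested, Gdf11, a secreted factor that sets the trunk to tail switch, rose by 1.16 (SE 0.36), and the hindbrain factor Egr2 fell by 3.18 (SE 0.33). Egr2 is also made by macrophages, whose markers were lower in these cardiomyocyte libraries, and the part of those cells was not tested. Among 15 genes that flank the clusters, 7 were higher and 3 lower, against the same shares of all genes, among them Cbx5 beside Hoxc (1.42, SE 0.16) and Mtx2 beside Hoxd (1.61, SE 0.28), and Snx10 beside Hoxa fell by 1.93 (SE 0.27). Each of these lists had 0 genes called between Tg+ and WT in either cell type.

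Of 18 positional transcription factors outside the clusters that were tested, 10 were higher and 4 lower in cardiomyocytes, where 20.4% of all genes were called higher and 24.7% lower, and 0 were called between Tg+ and WT. En1, a gene of the midbrain boundary, of somites and of ventral limb and trunk skin, had 9.11, 11.1 and 77.8 CPM in cardiomyocytes of Tg+ mice 1, 2 and 3 and 54.8, 2.36 and 146.4 CPM in those of WT mice 1, 2 and 3, against at most 0.442 CPM in any fibroblast library. Emx2, a gene of the forebrain, the urogenital ridge and the shoulder blade, had 2.95, 12.7 and 35.8 CPM in Tg+ and 4.86, 1.2 and 42.0 CPM in WT cardiomyocytes, against at most 0.0675 CPM in fibroblasts. For both genes every cardiomyocyte value lay above every fibroblast value, with log2 fold changes of 8.41 (SE 0.54, adjusted p = 1.82e-06, edgeR) and 8.05 (SE 0.78, adjusted p = 2.08e-05, edgeR). Both were near 0 in all fibroblast libraries, passed the filter through cardiomyocytes and could hardly be called lower. They are named because their p was among the lowest of the list. WT mouse 2 was lowest for En1, for Emx2 and for the summed Hox level. Foxf1, a lung and gut mesenchyme gene, and Irx3 fell by 2.42 (SE 0.37) and 2.17 (SE 0.34) on the log2 scale.

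Reads of some members cannot be fully told apart. Between protein-coding transcripts, 20 of 703 pairs of members shared at least one stretch of 31 bases, the word length with which kallisto assigns reads by default. More was shared with other annotated gene models, Gm28230 for Hoxd3 and Hoxd4, Gm28309 for Hoxd11 and Gm28308 for Hoxa2 and Hoxa3. For Hoxd3 65.8% and for Hoxd4 43.5% of all 31-base words also occurred in another annotated gene, for Hoxd11 21.9%, for Hoxa2 13.7%, for Hoxa3 9.30% and for Hoxc10 7.34% (with a noncoding transcript of Hoxc5). The effect of this sharing on the estimated counts was not tested, and the values of these genes are uncertain. Of the 5 genes called higher, Hoxa7 (1.01%), Hoxd9 (1.19%), Hoxc8 (0.66%) and Hoxd8 (0.07%) shared few words and Hoxc6 none.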

How the data were processed

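The authors deposited estimated counts (expected counts) per protein-coding gene for each library, of which 44.6% were not whole. Build GRCm38.p6, kallisto 0.44.0, R 3.4.4 and DESeq2 1.18.1 are listed in the submitters' processing notes, and no source used here gives the annotation. A second deposited table of normalized counts was not used. Per the labels, cardiomyocyte samples were sequenced a second time, without a statement that rep1 and rep2 are those rounds, so both were summed per mouse and the mouse was the unit. No label says more about how the mice are related, and p-values measure the spread between these mice.

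The 13 mitochondrial genes were left out. Counts were rounded and tested with edgeR 4.0.16 in R 4.3.3 (filterByExpr, TMM scaling, robust quasi-likelihood F test, two-sided), with Benjamini-Hochberg adjustment over all genes tested and a threshold of 0.05. CPM values in the text are unscaled and fold changes are TMM-scaled. The comparison of cell types had the mouse as a block, and Tg+ was compared with WT in each cell type. Alternatives were DESeq2 1.42.0, its size factors, library size alone, no filter, mitochondrial genes kept, each mouse left out, rep2 alone, the code letter as a covariate, no mouse block, and limma 3.58.1 with a replicate block. Members that passed a filter were named, and up to 4 genes of lowest p from each other list; a few such genes, 1 of them a member, are not reported here. The fits were tested on simulated data. The members and lists were chosen with earlier results of these data known. Marker lists of endothelial cells and lymphocytes had 0 genes higher and 2 lower of 8, and 0 higher and 4 lower of 8, in cardiomyocytes. Across genotypes, deviations from the genotype mean in cardiomyocyte libraries with the same repeat number had a mean correlation of 0.01 (range -0.43 to 0.41, 18 pairs). Every mouse had both repeat numbers and genotype means were subtracted, so this mean cannot show whether mice were paired.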

Additional observations from a re-analysis of the deposited data

Results flagged for a closer look

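In 12 of 55 sets of 6 mice, 1 mouse's level stood apart from the other 5 by more than Dixon's limit for 6 values. For independent sets of normally distributed values, chance gives about 1 such set in 20. That rate does not apply here, since CPM values were used without a log transform and genes of one cluster are not independent. All 12 flags were highest values, and their number is not a test. In cardiomyocytes WT mouse 1 stood highest for 6 Hox genes. It had 5.37 CPM of Hoxb5 with the next mouse at 1.67, 16.8 CPM of Hoxb6 with the next at 4.11, and 4.86 CPM of Hoxb7 with the next at 1.54. It also had 33.6 CPM of Hoxc9 with the next at 9.36, 34.4 CPM of Hoxc10 with the next at 9.82, and 4.42 CPM of Hoxc11 with the next at 0.513. The next mouse was Tg+ mouse 1 for all 6 genes. Tg+ mouse 3 stood highest in cardiomyocytes for Hoxa6, at 3.65 CPM with the next at 0.955, and for Hoxd9, at 29.2 CPM with the next at 11.0. WT mouse 3 stood highest in cardiomyocytes for Hoxd4, at 12.1 CPM with the next at 4.43.

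In fibroblasts WT mouse 3 stood highest for Hoxa3, at 7.26 CPM with the next at 3.58. Tg+ mouse 3 stood highest in fibroblasts for Hoxa7, at 2.56 CPM with the next at 1.20, and for Hoxc4, at 1.24 CPM with the next at 0.423.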

How the results depend on the processing

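The count of Hox genes called higher in cardiomyocytes, 5 of 13, rose to 16 of 38 with no filter and to 13 of 24 with the filter applied to the 4 groups of cell type and genotype, an alternative chosen after seeing the data; more genes were tested in both. Leaving out each mouse in turn gave 5 to 10 calls. The 10 came without WT mouse 2, the mouse with the lowest Hox level, and the cause was not tested. All 5 genes kept their calls in every alternative, except that Hoxc6 did not pass the filter when mitochondrial genes were kept. The all-gene median moved to 0.38 with library size alone. Between Tg+ and WT, 0 Hox genes were called under any alternative in either cell type, and in cardiomyocytes 13 of 15 members changed sign as mice were left out. The log2 fold change of Hoxd4 ran from -1.92 (without Tg+ mouse 3) to 0.14 (without WT mouse 3), and that of Hoxc9 from -1.73 (without WT mouse 2) to 1.22 (without WT mouse 1); the cause was not tested. With libraries as units and the repeat number as a replicate block, 0 of 10 tested members were called in cardiomyocytes. The mean log2 ratio of the summed Hox level became 0.87 with mitochondrial counts in the total. Cardiomyocyte depth limits low genes, since a gene at 0 counts could lie at 0.385 to 1.33 CPM.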
